A study of Mus musculus with 12 samples.

Results

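Transcripts of 10 macrophage genes were followed in mouse liver after a single dose of diethylnitrosamine (DEN), a carcinogen that liver cytochrome P450 enzymes turn into a DNA-alkylating species. The genes were taken by symbol and fell into 2 sets: 5 markers of resident Kupffer cells (Clec4f, Timd4, Vsig4, Cd5l and Marco) and 5 genes shared by macrophages in general (Csf1r, Mpeg1, Cd68, C1qa and Cd14). They were 10 of the 22609 gene symbols in each count file, and all 10 passed the filter on low counts that left 13255 genes for testing. Male C57BL/6 mice aged 8 weeks, wild type (WT) or knockout (KO) for TRIM21, an E3 ubiquitin ligase that binds antibodies in the cytosol, received 200 mg/kg DEN in PBS intraperitoneally, or PBS, and whole liver was sampled 48 h later. There were 3 libraries of PBS-treated wild type (PBSWT), 3 of PBS-treated knockout (PBSKO), 3 of DEN-treated wild type (DENWT) and 2 of DEN-treated knockout (DENKO). A single DEN-treated library was labelled heterozygote (DENHET_136). The labels do not state where else in the body TRIM21 was deleted or which allele was used.

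Kupffer cells are the macrophages that live in the sinusoids of the liver, where they clear particles, complement-coated microbes and dying cells from portal blood. They settle before birth and renew locally under signals from hepatocytes, stellate cells and sinusoidal endothelium, and their survival depends on CSF1 receptor signalling. After acute injury their number can fall while blood monocytes enter the liver, and such newcomers express general macrophage genes before they take on the resident markers. In whole-liver RNA, fewer cells of a type and less RNA of a gene per cell cannot be told apart.

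Gene counts totalled 17303124 to 23059252 per library, with 21 to 3076 counts for a member in any library. Levels are given in CPM, the reads of a gene relative to the library size, which was scaled by the trimmed mean of M-values (TMM). Trim21 reached 7 counts (0.277 CPM) in the library labelled heterozygote, where DENWT libraries had 5.08 to 7.53 CPM and DENKO libraries 0.115 to 0.126 CPM, so its count went against its label. It stayed out of all tests. PBSWT_541 was the lowest of the PBSWT libraries in all 10 members and PBSWT_542 the highest in all 10. PBSKO_154 was the lowest of its group in 8 members and DENWT_996 in 8.

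The promoters of 3 resident markers are shown because their transcripts moved in opposite directions after DEN. Each window is the 250 bases before the RefSeq gene start, on the strand of the gene (GRCm38.p6, a later build than the one used for counting). Clec4f lies at chr6:83656117-83656366, Vsig4 at chrX:96293439-96293688 and Marco at chr1:120505025-120505274, all on the minus strand. Capitals mark the letters GAGGAAG, a core motif of PU.1, the macrophage lineage factor encoded by Spi1, and TGANTCA, the AP-1 motif, searched on both strands.
Clec4f: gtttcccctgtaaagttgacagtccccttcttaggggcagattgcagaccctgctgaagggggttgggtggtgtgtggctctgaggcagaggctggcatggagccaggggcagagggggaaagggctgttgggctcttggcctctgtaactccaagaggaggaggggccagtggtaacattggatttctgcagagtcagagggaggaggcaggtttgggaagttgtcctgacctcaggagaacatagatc
Vsig4: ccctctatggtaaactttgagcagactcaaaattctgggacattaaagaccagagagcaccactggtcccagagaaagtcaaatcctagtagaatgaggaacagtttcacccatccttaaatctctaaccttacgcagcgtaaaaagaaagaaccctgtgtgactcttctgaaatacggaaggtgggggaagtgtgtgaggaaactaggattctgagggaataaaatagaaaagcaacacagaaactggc
Marco: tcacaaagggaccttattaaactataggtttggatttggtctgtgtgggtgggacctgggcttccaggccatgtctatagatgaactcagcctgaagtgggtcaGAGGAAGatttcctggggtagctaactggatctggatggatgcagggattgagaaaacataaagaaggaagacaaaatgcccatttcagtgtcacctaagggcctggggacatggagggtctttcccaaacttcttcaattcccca
Of these windows only that of Marco held the PU.1 letters, 146 bases before the start. No AP-1 letters occurred in any of the 3. Among all 32851 windows of the same length, 10.61% held the PU.1 letters and 6.75% the AP-1 letters. A match is a description of the sequence and not a measured binding site. RefSeq windows were found for 7 of the 10 members. Among these the window of Cd5l, which is not shown, also held the PU.1 letters, 67 bases before the start, and that of Cd68 held the AP-1 letters 149 and 24 bases before it, so a match was not particular to Marco.

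DEN did not move the members as 2 sets. In wild-type liver, Clec4f, Timd4 and Vsig4 fell together with Csf1r and C1qa, while Marco, Cd68 and Cd14 rose, so each set held genes of both directions. Cd5l and Mpeg1 were lower after DEN without passing the test. In the edgeR quasi-likelihood fit, 8 of 10 members passed an adjusted p of 0.05, 3 higher and 5 lower, where 55.8% of all tested genes passed, 29.2% higher and 26.7% lower. A changed member is therefore no rarity in this comparison, and the direction and size of each are the information. In knockout liver 4 members rose (Marco, Mpeg1, Cd68 and Cd14), and 22.7% of all tested genes passed, 12% higher and 10.7% lower. No member passed as lower in the knockout, although Clec4f and Timd4 were lower at an unadjusted p under 0.05, and DESeq2 and limma-voom each called Clec4f.

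**Figure D1:**
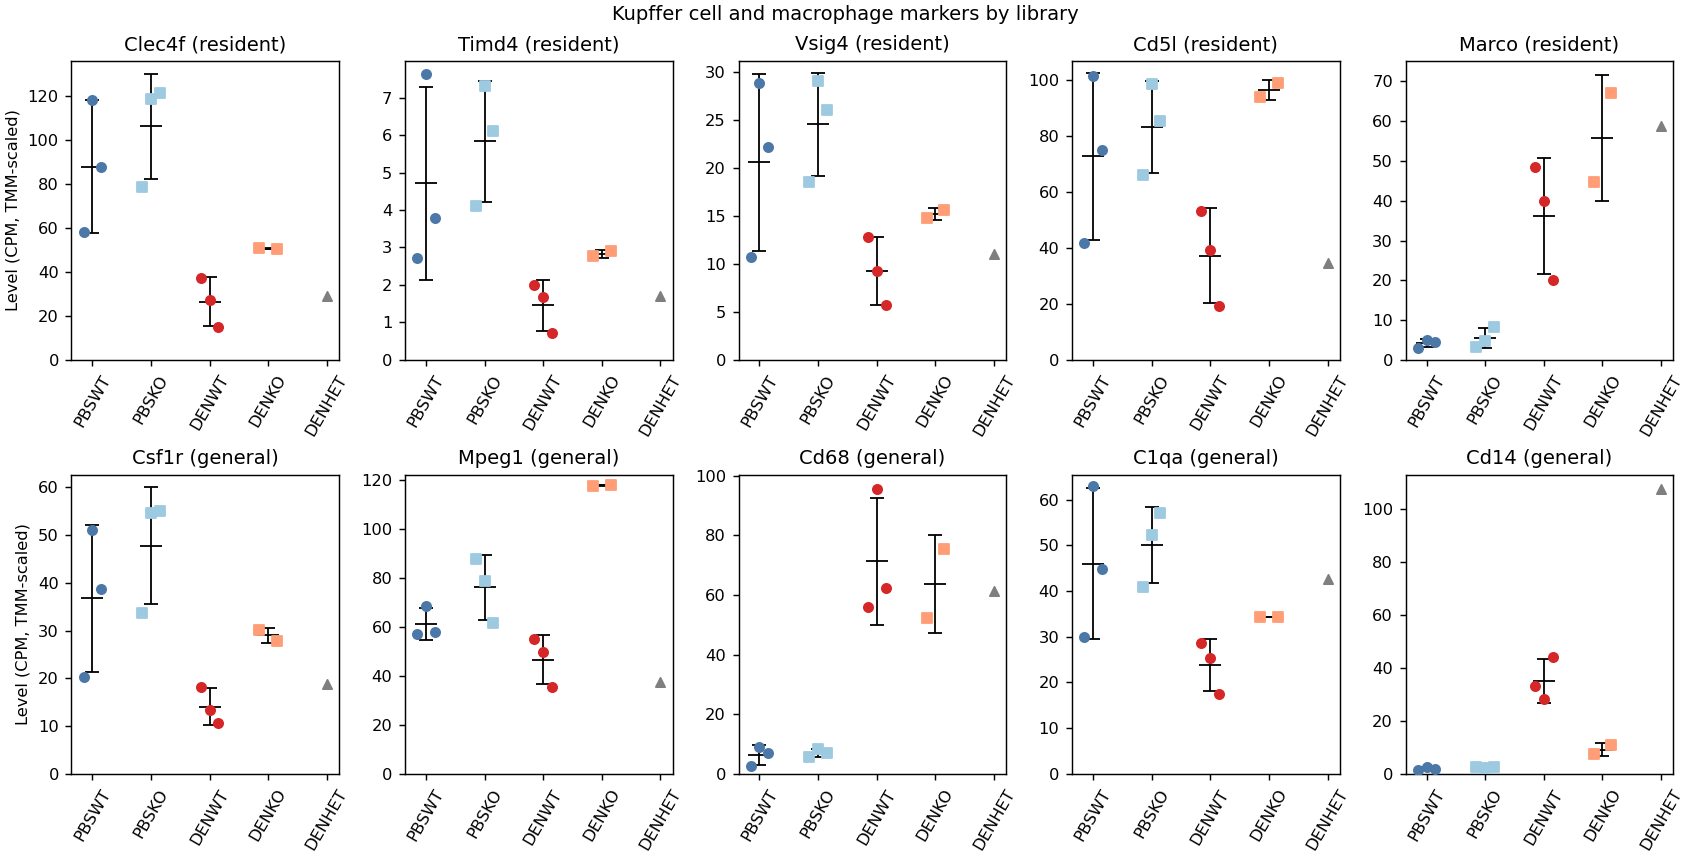
Level of each member in every library, in CPM on a linear axis starting at 0, by group (PBSWT and PBSKO, PBS-treated wild type and knockout; DENWT and DENKO, DEN-treated; DENHET, the library labelled heterozygote). Points are libraries, and bars are the mean and SD of the groups of 2 or 3. Marco, Cd68 and Cd14 stood above all PBS libraries in every DEN library, while Clec4f, Timd4 and Csf1r in the DENWT and DENKO libraries stood below all PBS libraries of their genotype.

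Clec4f, a galactose-binding lectin found almost only on Kupffer cells in mice, had 58.0, 118 and 87.7 CPM in PBSWT_541, PBSWT_542 and PBSWT_545 and 79.0, 119 and 122 CPM in PBSKO_154, PBSKO_544 and PBSKO_549. After DEN, Clec4f had 37.3, 27.1 and 15.04 CPM in DENWT_307, DENWT_995 and DENWT_996, 50.8 and 50.6 CPM in DENKO_141 and DENKO_309, and 29.2 CPM in DENHET_136. All DEN libraries lay below all PBS libraries, and both DENKO libraries lay above the DENWT libraries. Clec4f fell by 1.74 ± 0.34 (SE) on the log2 scale in wild type (adjusted p = 0.0019), a 3.33-fold lower level. In knockout the log2 fold change was −1.07 ± 0.39 (adjusted p = 0.073). The genotypes under DEN differed by 0.94 ± 0.37 (adjusted p = 0.097).

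Timd4, a phosphatidylserine receptor of long-lived resident macrophages that binds dying cells, was the scarcest resident marker after DEN. It had 2.72, 7.63 and 3.78 CPM in the PBSWT libraries and 4.11, 7.30 and 6.12 CPM in the PBSKO libraries. After DEN, Timd4 had 2.01, 1.66 and 0.703 CPM in DENWT, 2.76 and 2.91 CPM in DENKO and 1.70 CPM in DENHET_136. Within each genotype no DEN library reached a PBS library. Timd4 fell by 1.72 ± 0.43 on the log2 scale in wild type (adjusted p = 0.0046). In knockout the log2 fold change was −1.05 ± 0.45 (adjusted p = 0.12).

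Timd4 kept a near-constant share of Clec4f. The ratio of Timd4 to Clec4f read counts was 0.0514 ± 0.011 (SD, n = 3) in PBSWT, 0.0546 ± 0.0061 (n = 3) in PBSKO, 0.054 ± 0.0073 (n = 3) in DENWT, 0.0559 ± 0.0022 (n = 2) in DENKO and 0.0583 in DENHET_136. Such within-library ratios do not depend on how libraries are scaled. The group means of this ratio differed by less than the SD of the PBSWT libraries.

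Vsig4, a receptor for C3b and iC3b that lets Kupffer cells capture complement-coated bacteria, had 10.7, 28.9 and 22.2 CPM in PBSWT and 18.6, 29.1 and 26.1 CPM in PBSKO. After DEN, Vsig4 had 12.9, 9.22 and 5.69 CPM in DENWT, 14.8 and 15.7 CPM in DENKO and 11.01 CPM in DENHET_136. DENWT_307 lay above PBSWT_541, so the wild-type groups overlapped. Vsig4 counts per Clec4f count were at most 0.254 in every PBS library and at least 0.291 in every DEN library, without a test. Vsig4 fell by 1.16 ± 0.37 on the log2 scale in wild type (adjusted p = 0.022), and in knockout the log2 fold change was −0.69 ± 0.41 (adjusted p = 0.26). The wild-type call was lost without PBSWT_542, PBSWT_545, DENWT_995 or DENWT_996, with an adjusted p of up to 0.087.

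Cd5l, a protein secreted by macrophages that inhibits apoptosis and binds lipids and pathogens, had 41.7, 101 and 75.0 CPM in PBSWT and 65.9, 98.4 and 85.3 CPM in PBSKO. After DEN, Cd5l had 53.1, 39.1 and 19.3 CPM in DENWT and 93.7 and 98.8 CPM in DENKO. DENHET_136 had 34.7 CPM. The DENWT libraries reached into the PBSWT range, whereas the DENKO libraries lay near the highest PBSKO library and stood above all DENWT libraries. The log2 fold change after DEN was −0.97 ± 0.39 in wild type (adjusted p = 0.059) and 0.21 ± 0.43 in knockout (adjusted p = 0.77). Under DEN, Cd5l was higher in knockout than in wild type by 1.37 ± 0.42 (adjusted p = 0.046).

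Relative to Clec4f, Cd5l counts were higher after DEN in both genotypes. Their ratio was 0.81 ± 0.079 in PBSWT, 0.788 ± 0.076 in PBSKO, 1.38 ± 0.087 in DENWT, 1.90 ± 0.075 in DENKO and 1.19 in DENHET_136. No DEN library overlapped the PBS libraries in this ratio, and the DENKO libraries (1.85 and 1.95) exceeded the DENWT libraries (1.29 to 1.45). These ratios carry no test.

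Marco, a class A scavenger receptor for bacteria and particles, went against the other resident markers. It had 3.01, 5.07 and 4.51 CPM in PBSWT and 3.26, 4.82 and 8.19 CPM in PBSKO. After DEN, Marco had 48.5, 39.8 and 20.1 CPM in DENWT, 44.6 and 67.0 CPM in DENKO and 58.7 CPM in DENHET_136. Every DEN library exceeded every PBS library. Marco rose by 3.10 ± 0.42 on the log2 scale in wild type (8.57-fold, adjusted p = 0.00018) and by 3.36 ± 0.43 in knockout (10.2-fold, adjusted p = 0.0006). The genotypes overlapped under DEN, where the log2 difference was 0.63 ± 0.40 (adjusted p = 0.29).

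Marco made up 2.29% ± 0.33 (SD, n = 3) of the resident marker counts in PBSWT and 2.36% ± 0.82 (n = 3) in PBSKO. After DEN its share was 32.9% ± 1.3 (n = 3) in DENWT, 25.1% ± 4.9 (n = 2) in DENKO and 43.4% in DENHET_136. Its ratio to Clec4f went from 0.0487 ± 0.0051 in PBSWT to 1.37 ± 0.090 in DENWT. In DENWT_996, which had the lowest Clec4f, Marco was also the lowest of its group, so the ratio of 1.34 in that library lay between those of the other DENWT libraries.

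**Figure D2:**
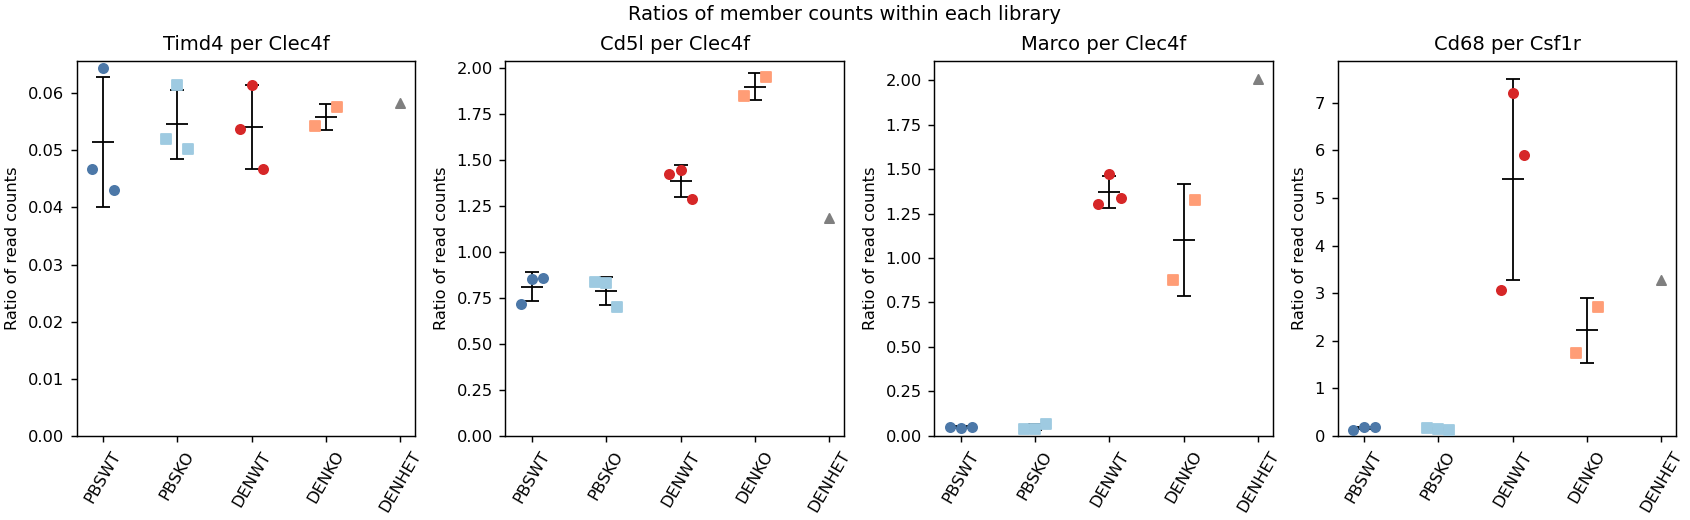
Ratios of read counts within each library for Timd4, Cd5l and Marco per Clec4f count and Cd68 per Csf1r count, on linear axes starting at 0. Points are libraries, and bars are the mean and SD of groups of 2 or 3. Timd4 per Clec4f stayed between 0.0431 and 0.0644 in all 12 libraries, while Marco per Clec4f was at most 0.0673 under PBS and at least 0.8785 under DEN.

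Among the general genes, Csf1r moved in the direction of Clec4f after DEN, but by less. Clec4f counts per Csf1r count were at least 2.17 in every PBS library and at most 2.05 in every DEN library. This ratio carries no test. Csf1r is the receptor for CSF1 and IL-34 on which macrophage survival depends. It had 20.4, 51.1 and 38.7 CPM in PBSWT and 33.6, 54.6 and 55.1 CPM in PBSKO. After DEN, Csf1r had 18.2, 13.3 and 10.6 CPM in DENWT, 30.1 and 27.9 CPM in DENKO and 18.8 CPM in DENHET_136. Within each genotype the DEN libraries lay below the PBS libraries, and both DENKO libraries stood above the DENWT libraries. Csf1r fell by 1.39 ± 0.33 on the log2 scale in wild type (adjusted p = 0.005). In knockout the log2 fold change was −0.72 ± 0.36 (adjusted p = 0.19), and between the genotypes under DEN it was 1.05 ± 0.36 (adjusted p = 0.061). That genotype difference passed the test in DESeq2, in limma-voom and without DENWT_307, PBSWT_541 or PBSWT_542.

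C1qa encodes the A chain of C1q, the recognition part of the first complement component, which liver macrophages make. It had 30.05, 63.1 and 44.9 CPM in PBSWT and 40.8, 52.3 and 57.0 CPM in PBSKO. After DEN, C1qa had 28.7, 25.3 and 17.5 CPM in DENWT, 34.2 and 34.3 CPM in DENKO and 42.6 CPM in DENHET_136. The DEN groups lay below the PBS groups of their genotype, while DENHET_136 lay within the PBS ranges. C1qa fell by 0.95 ± 0.25 on the log2 scale in wild type (adjusted p = 0.0079), and in knockout the log2 fold change was −0.55 ± 0.28 (adjusted p = 0.19).

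The partners of C1qa in the C1q molecule were lower by smaller amounts in wild type. C1qc, its C chain, had a log2 fold change of −0.75 ± 0.29 (adjusted p = 0.048) and C1qb, its B chain, one of −0.64 ± 0.32 (adjusted p = 0.12). In knockout neither passed the test, with −0.35 ± 0.32 for C1qc and −0.16 ± 0.36 for C1qb.

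Mpeg1, which encodes perforin-2, a pore-forming protein of phagocytes, passed the interaction test, with a DEN response called in knockout but not in wild type. It had 57.2, 68.8 and 57.9 CPM in PBSWT and 87.9, 79.0 and 61.8 CPM in PBSKO. After DEN, Mpeg1 had 55.0, 49.97 and 35.4 CPM in DENWT, 118 and 118 CPM in DENKO and 37.8 CPM in DENHET_136. All DENWT libraries were below all PBSWT libraries, both DENKO libraries were above all PBSKO libraries, and DENHET_136 lay in the DENWT range. The log2 fold change after DEN was −0.39 ± 0.17 in wild type (adjusted p = 0.063) and 0.63 ± 0.18 in knockout (adjusted p = 0.026). The difference of these responses was 1.02 ± 0.25 (interaction, adjusted p = 0.033). Under DEN, Mpeg1 was 2.52-fold higher in knockout than in wild type (log2 1.34 ± 0.18, adjusted p = 0.0011).

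Support for these Mpeg1 calls differed. The genotype difference under DEN passed each time a library was left out (11 fits), with an adjusted p of at most 0.015. The rise in knockout was lost without DENKO_141, DENKO_309 or PBSKO_549 (adjusted p up to 0.13), and the interaction in 6 of these 11 fits (up to 0.16). With total counts in place of TMM, the wild-type value turned from −0.39 to 0.08, neither of them called.

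Cd68, a glycoprotein of late endosomes and lysosomes, was scarce under PBS and abundant after DEN. It had 2.66, 9.11 and 7.10 CPM in PBSWT and 5.80, 8.34 and 7.13 CPM in PBSKO. After DEN, Cd68 had 55.8, 95.6 and 62.5 CPM in DENWT, 52.2 and 75.3 CPM in DENKO and 61.5 CPM in DENHET_136. The treatments did not overlap and the genotypes did. Cd68 rose by 3.49 ± 0.40 on the log2 scale in wild type (11.3-fold, adjusted p = 6.3e-05) and by 3.16 ± 0.41 in knockout (8.96-fold, adjusted p = 0.00065). Under DEN the genotype difference was −0.16 ± 0.39 (adjusted p = 0.8).

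Cd68 and Csf1r moved apart within libraries. Cd68 counts per Csf1r count were 0.164 ± 0.029 in PBSWT and 0.152 ± 0.021 in PBSKO. They were 3.06, 7.20 and 5.91 in DENWT_307, DENWT_995 and DENWT_996, 1.73 and 2.70 in DENKO_141 and DENKO_309, and 3.27 in DENHET_136. The lowest DEN library thus stood above the highest PBS library, at 0.184.

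Cd14 encodes the co-receptor that hands lipopolysaccharide (LPS) to the TLR4 complex. Monocytes, neutrophils and, under inflammation, hepatocytes also make it. It had 1.42, 2.71 and 1.99 CPM in PBSWT and 2.41, 2.14 and 2.66 CPM in PBSKO. After DEN, Cd14 had 33.1, 28.1 and 44.1 CPM in DENWT, 7.36 and 10.8 CPM in DENKO and 107 CPM in DENHET_136. No groups of different treatment overlapped, and the DENKO libraries lay between the PBS and the DENWT libraries.

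Cd14 rose by 4.09 ± 0.26 on the log2 scale in wild type (17.0-fold, adjusted p = 8.8e-08) and by 1.92 ± 0.27 in knockout (3.78-fold, adjusted p = 0.00025). The interaction was −2.17 ± 0.37 (adjusted p = 0.011). Under DEN, Cd14 was 3.86-fold lower in knockout than in wild type (log2 −1.95 ± 0.26, adjusted p = 0.00078). Leaving out DENKO_141 took the interaction to an adjusted p of 0.083. DENHET_136 had 3.06 times the DENWT mean and 11.8 times the DENKO mean, from 2712 counts.

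Between genotypes under PBS no member passed the test in edgeR, and none did at an unadjusted p under 0.05. DESeq2 and limma-voom called none either. Across all tested genes 0.00754% passed, which was Trim21 alone, and 508 genes had an unadjusted p under 0.05. The fitted values of all 10 members were higher in knockout, from 0.12 ± 0.25 for C1qa to 0.38 ± 0.32 for Csf1r on the log2 scale. Each group pair overlapped, and PBSWT_541, low in every member, is one of the 3 wild-type libraries. Leaving out single libraries moved the fitted values of Vsig4, Cd5l, Marco, Cd68 and C1qa below 0 in at least 1 fit each, with no call in any.

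Between genotypes under DEN, 3 of 10 members passed: Cd5l and Mpeg1 higher in knockout and Cd14 lower. DENHET_136, which had 7 Trim21 counts, did not go with the DENKO libraries in any of these 3. Its Cd5l and Mpeg1 lay in the DENWT range and its Cd14 above that range. Of all tested genes 22.1% passed, 12.2% higher and 9.85% lower. These counts leaned on DENKO_141: without it 206 genes were higher and 50 lower, against 1621 and 1306 with it, and Mpeg1 and Cd14 were the members still called. Clec4f, Timd4, Vsig4, Csf1r and C1qa were higher in both DENKO libraries than in every DENWT library without passing, with log2 differences of 0.53 to 1.05. The share of all tested genes separated in this way was not counted. These members also varied together between libraries, so their separations are not independent. Leaving out 1 library removed the Cd5l call in 8 of 11 cases (adjusted p up to 0.18). In the interaction 2 members passed, Mpeg1 and Cd14, where 6.58% of all tested genes did (540 higher and 332 lower). Without DENKO_141 no member and 24 higher and 2 lower genes passed, and without PBSWT_542 158 higher and 64 lower genes did. With 2 DENKO libraries the fit took its spread mostly from the other groups.

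**Figure D3:**
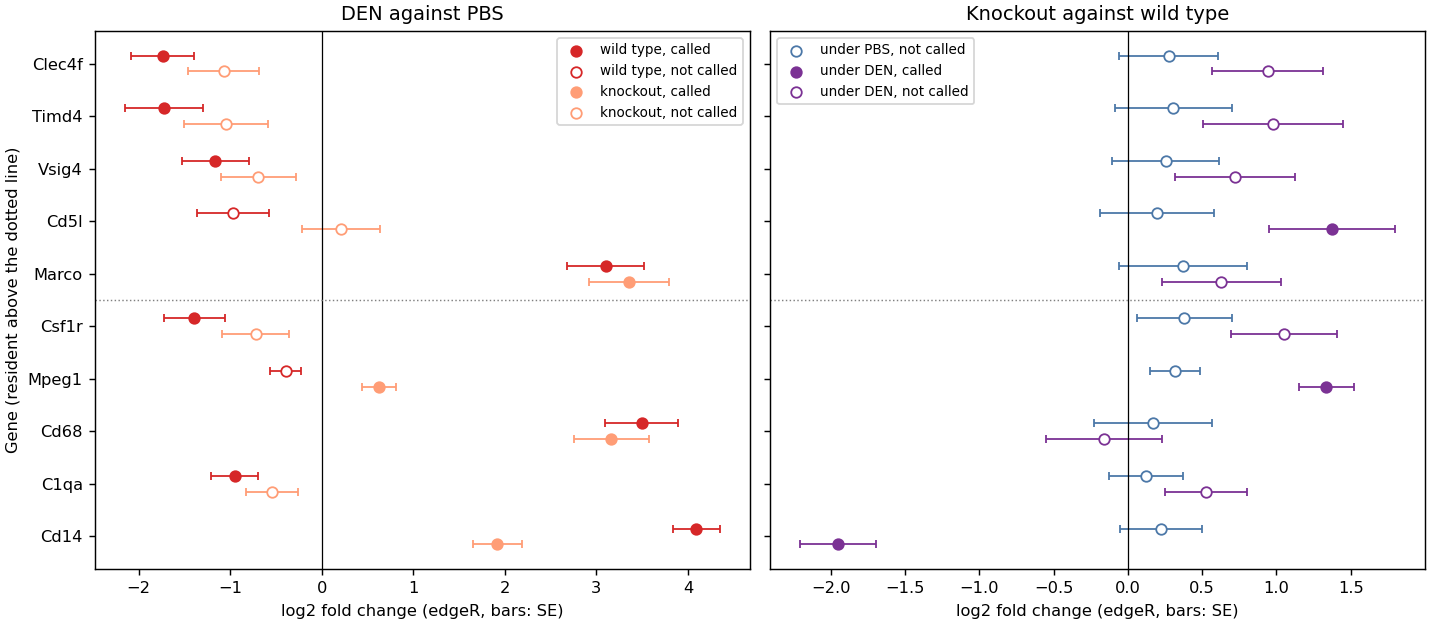
Log2 fold change of each member with its SE from edgeR, for DEN against PBS in each genotype (left) and knockout against wild type under each treatment (right). Filled points passed an adjusted p of 0.05 over 13255 genes, open points did not, and the dotted line parts resident markers (above) from general genes (below). Marco, Cd68 and Cd14 stand to the right in both genotypes, and Mpeg1 is called in knockout, right of 0, and not in wild type, where its value of −0.39 became 0.08 with total counts in place of TMM.

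Compared as sets, resident markers gave 190 ± 73 CPM (SD, n = 3) in PBSWT, 226 ± 48 (n = 3) in PBSKO, 111 ± 47 (n = 3) in DENWT, 221 ± 20 (n = 2) in DENKO and 135 in DENHET_136. General genes gave 152 ± 42, 184 ± 13, 191 ± 21 and 254 ± 17 CPM in the same groups and 268 in DENHET_136. In wild type the sums of both sets overlapped between treatments, with DENWT_307 above PBSWT_541 in the resident sum. In knockout the resident sums of the treatments overlapped and the general sum was higher after DEN in both libraries than in any PBSKO library.

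The log2 ratio of resident to general counts was 0.06, 0.42 and 0.36 in the PBSWT libraries and 0.00, 0.40 and 0.43 in the PBSKO libraries. It was −0.31, −0.86 and −1.48 in DENWT, −0.23 and −0.18 in DENKO and −0.99 in DENHET_136. Every DEN library lay below every PBS library. The group means differed by −1.16 between DENWT and PBSWT, by −0.48 between DENKO and PBSKO and by 0.68 between DENKO and DENWT. Because the members were chosen with results known, these ratios carry no test.

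Single genes decided much of this contrast. Without Marco, the resident sum was 186 ± 72 CPM in PBSWT, 220 ± 46 in PBSKO, 74.4 ± 32 in DENWT, 165 ± 4.2 in DENKO and 76.6 in DENHET_136, and the ratio in knockout differed by −0.86 in place of −0.48. Without Cd14, the log2 ratio of DENKO minus DENWT was 0.43 in place of 0.68, and that of DENHET_136 was −0.25 in place of −0.99. Without Cd68 and Cd14, the general sum was 144 ± 38 CPM in PBSWT and 84.7 ± 19 in DENWT, against 174 ± 12 in PBSKO and 181 ± 1.4 in DENKO. The sum of Csf1r, Mpeg1 and C1qa was thus lower in every DENWT library than in any PBSWT library, and in knockout the treatments overlapped.

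**Figure D4:**
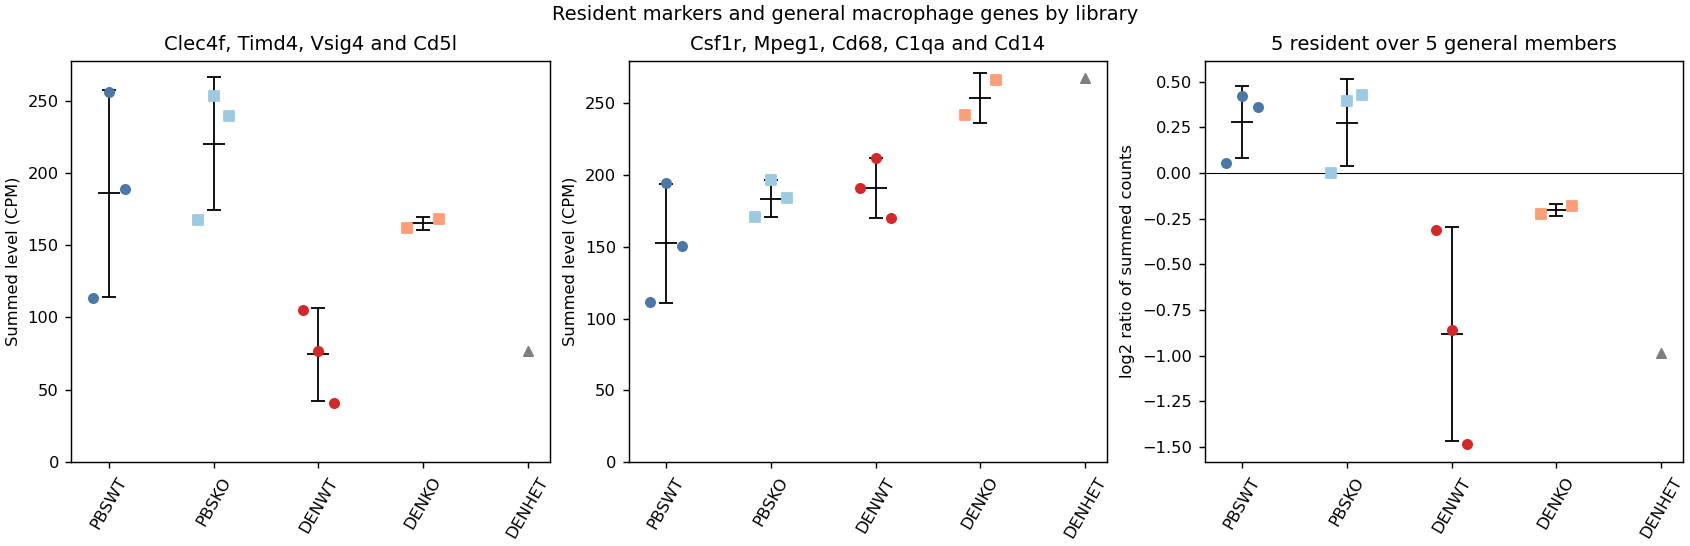
Summed CPM of the resident markers without Marco (left) and of the 5 general genes (middle), on axes starting at 0, and the log2 ratio of summed counts of all 5 resident to all 5 general members (right). Points are libraries, and bars are the mean and SD of groups of 2 or 3. The ratio is at least 0.00 in all PBS libraries and at most −0.18 in all DEN libraries.

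Per kilobase of merged exons, which allows levels of different genes to be compared, C1qa led in PBSWT with 44.2 ± 16 CPM per kb (SD, n = 3). Cd5l (35.7 ± 15), Clec4f (35.6 ± 12), Vsig4 (14.4 ± 6.4), Mpeg1 (14.1 ± 1.5), Csf1r (7.52 ± 3.2) and Cd68 (5.004 ± 2.6) followed. Marco (2.18 ± 0.55), Timd4 (2.17 ± 1.2) and Cd14 (1.24 ± 0.40) were the lowest. The ranges of mean ± SD overlapped for the leading 3, for Vsig4 with Mpeg1 and Csf1r, for Cd68 with Csf1r, Marco and Timd4, and among Marco, Timd4 and Cd14. These SDs are between libraries, and PBSWT_541 was low in every member. They therefore do not decide whether 2 genes differ within libraries. The ratio of C1qa to Clec4f counts, for example, was 0.521 ± 0.011 in PBSWT.

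After DEN the order changed. In DENWT, Cd68 led with 56.7 ± 17 CPM per kb, ahead of C1qa (22.9 ± 5.5), Cd14 (21.4 ± 5.0), Marco (18.8 ± 7.6) and Cd5l (18.3 ± 8.3). The ranges of mean ± SD of the last 4 overlapped. Clec4f moved from the third place to the seventh, at 10.7 ± 4.5. In DENKO, Cd68 (50.7 ± 13) and Cd5l (47.3 ± 1.8) led, and Cd14 stood in the ninth place with 5.54 ± 1.5. In DENHET_136, Cd14 led with 65.4 CPM per kb.

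Members also varied together inside groups. Over the 11 libraries of the 4 groups, deviations of Clec4f from its group means, on the log2(CPM + 1) scale, correlated with those of Cd5l at r = 0.98, of Vsig4 at 0.96, of C1qa at 0.95 and of Timd4 at 0.93. For Marco r was 0.86, for Cd68 0.53, for Mpeg1 0.51 and for Cd14 0.01. The points share their libraries and group means, and r is a description. Of all tested genes, 2.11% had an r over 0.8 with Clec4f on this measure.

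The genes whose deviations were most like those of Clec4f were Ptgs1 (r = 0.98), Cd5l, Folr2 (0.98), Hmha1 (0.97) and Treml4 (0.97). For Csf1r they were Slc11a1 (0.98), Fam111a (0.97), Slfn5 (0.97), Vsig4 (0.97) and Cd53 (0.97). Over all 12 libraries, whose points also span the treatments, the level of Clec4f was most like those of Folr2 (0.99), Ambp (0.98), Timd4 (0.98), Zfp532 (0.98) and Fcna (0.97). On that measure Csf1r was most like Vsig4 (0.98), Rgs10 (0.97), Clec4f (0.97), Timd4 (0.97) and Folr2 (0.96).

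Other genes of Kupffer cells were lower or did not pass in wild type. Of 14 tested, 7 fell (50%, beside 26.7% of all tested genes) and none rose (beside 29.2%). The median log2 fold change of the list was −0.70 against 0.04 over all genes. C6, a late complement component that hepatocytes also make, fell by 2.97 ± 0.19. Folr2, a folate receptor, fell by 1.88 ± 0.44, and Hpgd, which degrades prostaglandins, by 1.73 ± 0.20. In knockout 2 fell (C6 and Nr1h3) and 1 rose (Il18bp), with a median of −0.31. These are 14.3% and 7.14% of the list, beside 10.7% and 12% of all tested genes. Under DEN 4 were higher in knockout (28.6%, beside 12.2% of all tested genes) and none lower (beside 9.85%). These 4 were C6, Hpgd, Siglec1 and Spic, a transcription factor of iron-handling macrophages with a difference of 1.64 ± 0.41.

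Among 18 other pan-macrophage and myeloid genes, 5 fell in wild type (27.8%, beside 26.7% of all tested genes) and 2 rose (11.1%, beside 29.2%). Aif1, C1qc, Cybb and Mertk were among those that fell, and Itgam and Lgmn rose. In knockout 4 of the 18 tested rose (Itgam, Laptm5, Lgmn and Ptprc) and none fell. The 4 are 22.2% of the list, beside 12% of all tested genes. Under DEN 9 were higher in knockout (50%, beside 12.2% of all tested genes) and none lower (beside 9.85%). The median difference was 1.15 against 0.01 over all genes. Lyz2, the lysozyme of myeloid cells, differed by 1.57 ± 0.43. Ptprc, the CD45 of all white blood cells, differed by 1.38 ± 0.27 (adjusted p = 0.0049). Adgre1, which encodes the F4/80 antigen, passed in no comparison, with −0.92 ± 0.42 in wild type (adjusted p = 0.086) and −0.46 ± 0.46 in knockout.

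On the ligand side of Csf1r, Csf1 had 11.98, 17.3 and 13.3 CPM in PBSWT and 9.78, 12.02 and 13.1 CPM in PBSKO. After DEN, Csf1 had 22.9, 14.9 and 17.0 CPM in DENWT, 25.7 and 24.2 CPM in DENKO and 11.2 CPM in DENHET_136. The genotypes overlapped under PBS and not under DEN. Csf1 rose in knockout by 1.10 ± 0.20 on the log2 scale (adjusted p = 0.0019), and in wild type its log2 fold change was 0.36 ± 0.19 (adjusted p = 0.11). The difference of these responses was 0.74 ± 0.28 (interaction, adjusted p = 0.12). Il34, the other ligand, passed in no comparison.

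The CSF1 receptor axis and its lineage factors held 17 genes. In wild type 6 fell (35.3%, beside 26.7% of all tested genes) and 2 rose (11.8%, beside 29.2%). In knockout 2 fell (11.8%, beside 10.7%) and 4 rose (23.5%, beside 12%). Under DEN 3 were higher in knockout (17.65%, beside 12.2%), namely Csf2ra, Irf8 and Spi1. Spi1, which encodes PU.1, had a log2 fold change of −0.65 ± 0.30 in wild type (adjusted p = 0.082) and was 1.25 ± 0.32 higher in knockout under DEN (adjusted p = 0.016). Runx1, a blood cell transcription factor, rose by 3.83 ± 0.39 in wild type and by 2.74 ± 0.40 in knockout.

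Around Cd14, the rest of the LPS receptor complex stayed below the threshold. Tlr4, Ly96 and Lbp passed in no comparison, and their log2 fold changes after DEN lay between 0.13 and 0.55. Tlr4 had 11 to 63 counts per library, which limits what could be seen. Of the 16 genes of the receptor complex and its adaptors, 5 rose in wild type (Cd14, Irak2, Irak3, Tirap and Traf6) and 2 in knockout (Cd14 and Tlr1), and none fell. These are 31.2% and 12.5% of the list, beside 29.2% and 12% of all tested genes. Under DEN Cd14 and Traf6 were lower in knockout and Tlr1 was higher. That is 12.5% lower and 6.25% higher, beside 9.85% and 12.2% of all tested genes.

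Markers of blood monocytes were measured beside the members. Ccr2, the chemokine receptor of inflammatory monocytes, had 1.24 to 1.73 CPM in PBSWT, 1.63 to 2.23 CPM in PBSKO, 5.57, 3.42 and 2.68 CPM in DENWT, and 9.20 and 7.21 CPM in DENKO. It rose by 1.44 ± 0.30 on the log2 scale in wild type (adjusted p = 0.0011) and by 2.01 ± 0.30 in knockout (adjusted p = 0.00046), and was 1.08 ± 0.28 higher in knockout under DEN (adjusted p = 0.018). Ly6c2, a surface antigen of the same monocytes, rose in knockout by 2.37 ± 0.52 (adjusted p = 0.0057), and in wild type its value was 0.54 ± 0.59 (adjusted p = 0.45). Under DEN it was 2.09 ± 0.48 higher in knockout (adjusted p = 0.01), from 5 to 14 counts in DENWT libraries and 40 in each DENKO library.

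Of 13 genes of monocytes and entering macrophages, 6 rose in wild type and 9 in knockout, none fell, and 5 were higher in knockout under DEN. These are 46.2%, 69.2% and 38.5% of the list, beside 29.2%, 12% and 12.2% of all tested genes. Their summed level was 15.4 to 20.4 CPM in PBSWT, 18.2 to 63.2 in PBSKO, 31.4 to 70.1 in DENWT, 64.7 to 73.6 in DENKO and 71.3 in DENHET_136. The highest PBSKO value is that of PBSKO_154. The part of these cells in the values of Mpeg1, Cd68, Marco and Cd14 was not tested.

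Of 12 genes that mark lipid-laden and scar-associated macrophages, 6 rose and 2 fell (Atp6v0d2 and Fabp5) in wild type, and 6 rose and none fell in knockout. Under DEN 6 were higher in knockout and 1, Ctsl, was lower. The higher genes are 50% of the list each time, beside 29.2%, 12% and 12.2% of all tested genes. The lower genes are 16.7% in wild type and 8.33% under DEN, beside 26.7% and 9.85%. Gpnmb, a lysosomal glycoprotein of such cells, had a mean of 0.187 CPM in PBSWT, 0.200 in PBSKO, 7.71 in DENWT and 19.7 in DENKO. Lgals3, or galectin-3, rose by 1.36 ± 0.34 in wild type and by 3.34 ± 0.36 in knockout. Trem2, a lipid-sensing receptor, and Itgax, the CD11c of dendritic cells and some macrophages, were 1.95 ± 0.46 and 2.47 ± 0.38 higher in knockout under DEN.

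Neutrophil markers bear on Cd14, which neutrophils also express. All 7 that were tested rose in wild type, 3 rose in knockout (Csf3r, Ltf and Mmp8), and none differed between genotypes under DEN. These are 100%, 42.9% and 0% of the 7, beside 29.2%, 12% and 22.1% of all tested genes. Of the 11 in the files, only these 7 passed the filter on low counts. Ltf, with at most 5 counts in any PBS library, passed it only through its DEN libraries. The shares that rose are therefore in part fixed by the filter and are not a result about neutrophils. The summed level of the 11 markers in the files was 2.46 to 3.38 CPM in PBSWT, 2.63 to 10.1 in PBSKO, 33.1 to 91.4 in DENWT, 55.2 to 68.5 in DENKO and 99.1 in DENHET_136. Ltf alone gave 76.8 of the 91.4 CPM in DENWT_995 and 50.9 of the 68.5 in DENKO_309, but 12.2 of the 99.1 in DENHET_136. The sum therefore does not compare the same genes between libraries. Counts were 0 throughout a group for 3 of them in PBSWT, 1 in PBSKO and 2 in DENKO.

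Ltf, or lactoferrin, had at most 0.302 CPM in any PBS library, 15.9, 76.8 and 24.2 CPM in DENWT, 45.7 and 50.9 CPM in DENKO and 12.2 CPM in DENHET_136. S100a8, a calcium-binding protein abundant in neutrophils, had 4.92, 2.88 and 1.27 CPM in DENWT, 1.27 and 2.83 CPM in DENKO and 19.2 CPM in DENHET_136, against 0.199 to 0.531 CPM in PBSWT and 0.149 to 2.84 CPM in PBSKO. S100a8 rose in wild type (2.94 ± 0.96, adjusted p = 0.025). DENHET_136 was thus the highest DEN library in Cd14 and S100a8 and the lowest in Ltf. Within DENWT, DENWT_996 had the highest Cd14 (44.1 CPM) and the lowest S100a8 (1.27 CPM). The part of neutrophils in Cd14 was not tested.

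Dendritic cell and lymphocyte markers were counted beside the members. Of 9 dendritic cell markers, 5 fell in wild type, none fell in knockout, and 6 were higher in knockout under DEN, among them the antigen presentation gene Cd74 (1.75 ± 0.26). These are 55.6%, 0% and 66.7% of the 9, beside 26.7%, 10.7% and 12.2% of all tested genes. The summed level of the 12 listed dendritic cell genes was 30.5 to 42.7 CPM in DENWT, 99.5 to 147 in DENKO and 102 to 169 in PBSWT. Of 10 markers of T, NK and B cells, 7 fell in wild type and 4 were higher in knockout under DEN. These are 70% and 40%, beside 26.7% and 12.2% of all tested genes. The summed level of the 13 listed lymphocyte genes was 2.04 to 2.74 CPM in DENWT and 5.82 to 8.05 in DENKO.

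None of 12 sinusoidal endothelial markers and none of 11 hepatocyte markers passed between genotypes under DEN, where 22.1% of all tested genes did. Of 11 stellate cell markers 1, Reln, was higher in knockout (9.09%, beside 12.2% of all tested genes). The endothelial sum was 118 CPM in PBSWT_541, against 225 and 245 in the other PBSWT libraries, so this library was low in sinusoidal genes beside macrophage genes. Without PBSWT_541 the wild-type DEN comparison called 9 members, with Cd5l added, and without DENWT_996 it called 7, with Vsig4 lost. In these fits 50.8% and 47.4% of all tested genes passed, against 55.8% with all libraries. Without PBSKO_154 the knockout DEN comparison still called Marco, Mpeg1, Cd68 and Cd14, beside 16.9% of all tested genes. The genotype comparison under DEN then called Mpeg1 and Cd14, beside 21.6%. The part of tissue sampling in these values was not tested.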

How the data were processed

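The deposited values were unnormalized read counts, 1 per gene symbol. The submitters' processing notes name bcl2fastq, TopHat2, HTSeq and mm9. For versions, annotation and strand setting the sources used here give nothing, so reads of overlapping antisense genes cannot be told apart. Per the labels, libraries came from about 500 ng of ribosomal RNA-depleted liver RNA. Lines naming no gene held 71.6% to 78.7% of listed counts in PBS libraries and 61.4% to 69.6% in DEN libraries. They were left out of library sizes. The part of this difference in the DEN comparisons was not tested.

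One edgeR 4.0.16 quasi-likelihood fit (R 4.3.3, robust, TMM, filterByExpr by group) held 11 libraries and 13255 genes. TMM factors were 1.13 to 1.30 in DEN and 0.858 to 0.901 in PBS libraries. Adjustment was by Benjamini and Hochberg over all tested genes in each comparison, and genes were called at an adjusted p under 0.05. SE is the absolute log2 fold change over the root of its F. The fit recovered simulated fold changes when tested on simulated data. Whether each library is another animal is not in the labels, and p-values therefore cover only the spread among these libraries, which may be technical. No number occurs in more than 1 group, and nothing was paired. Shares and ratios of counts are given with the SD between libraries.

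Members and lists were chosen with earlier results of these data known. All members were named, and of each list the counts called and up to 4 members with the largest called change, plus partners of Csf1r, C1qa and Cd14 and defining markers. Other genes named to spell out a short count, or to describe a pattern, were chosen after their values were seen. In the files Adgre1 is Emr1 and Spi1 is Sfpi1. Exon lengths came from GENCODE M21, which is not the annotation used for counting. DESeq2 1.42.0, limma-voom (limma 3.58.1), other scalings and filters, and fits without each library were alternatives. Some list genes are not reported here by name.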

Additional observations from a re-analysis of the deposited data

Results flagged for a closer look

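The DEN response differed between genotypes for 2 members in the interaction test of edgeR. Cd14 rose less in knockout than in wild type, by −2.17 on the log2 scale (adjusted p = 0.011). For Mpeg1 the fitted value was −0.39 in wild type, not called (adjusted p = 0.063) and 0.08 with total counts in place of TMM, and 0.63 in knockout, a difference of 1.02 (adjusted p = 0.033). For Cd5l the fitted response was negative in wild type and positive in knockout, a difference of 1.18, but its test did not pass (adjusted p = 0.23).

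The library labelled heterozygote, which no test used, had 58.7 CPM of Marco, 61.5 CPM of Cd68 and 107 CPM of Cd14, each above every PBS library.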

How the results depend on the processing

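Percentages in brackets are the shares of all tested genes called in the same fit. Knockout against wild type under DEN called 3 members (22.1%), 5 in DESeq2 (25.1%) and 5 in limma-voom (24.7%). Without single libraries it called 2 to 5, with 5 without DENWT_307 (19.4%). The share of all tested genes was 1.89% without DENKO_141. DEN in knockout called 4 (22.7%), and 7 (17.4%) when only its 2 groups were fitted, with Clec4f, Timd4 and Vsig4 added as lower. The interaction called 2 (6.58%), and 0 to 2 without single libraries. It called 0 without DENKO_141 (0.192%). It called 1 without DENKO_309 (4.53%), DENWT_996 (2.44%), PBSWT_541 (2.91%), PBSWT_542 (1.68%) or PBSWT_545 (1.94%). It was not fitted with 2 groups. Without Marco, an alternative chosen after seeing the data, the resident to general log2 ratio of DENKO minus PBSKO was −0.86 in place of −0.48.

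With total counts in place of TMM, the median of all genes shifted to 0.53 in wild type and 0.41 in knockout. All-gene calls then split into 6890 higher and 1857 lower in wild type, against 3868 and 3534, and into 4722 and 573 in knockout, against 1594 and 1416. Vsig4 (adjusted p = 0.1) and C1qa (0.084) lost their wild-type calls, and the members split into 3 higher and 3 lower. Over all members and comparisons, 508 of 550 values without single libraries and 424 of 440 under the other alternatives kept their direction and their side of the threshold, 22 and 3 lost a call, and 10 and 12 gained one. The other 10 and 1 changed sign, and none of them was called before or after. The 1 was Mpeg1 in wild type (0.080 with total counts). Without single libraries, the genotype difference under PBS ranged from −0.064 (without PBSWT_541) to 0.58 for Vsig4, −0.091 (PBSWT_541) to 0.51 for Cd5l, −0.060 (PBSKO_549) to 0.62 for Marco, −0.20 (PBSWT_541) to 0.56 for Cd68 and −0.12 (PBSWT_541) to 0.42 for C1qa. Under DEN that of Cd68 ranged from −0.45 to 0.11 (above 0 without DENKO_141 or DENWT_995). The interaction ranged from −0.069 to 0.68 for Marco (below 0 without DENKO_309 or DENWT_996) and from −0.72 to 0.036 for Cd68 (above 0 without PBSWT_541).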
